A study of Lathyrus oleraceus with 16 samples.

Results

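A group of 49 pea genes was expressed in every active shoot apical meristem kept free of seeds and was all but unread in arrested meristems. The members were chosen by their own read counts. Each had 3 or fewer raw counts summed over the 4 Arrested libraries, and 1 or more CPM (the count over the library's total count, scaled to 1000000) in each of the 4 Pruned libraries. They are 49 of the 48559 genes counted, and 0.25% of the 19630 genes that were on in Pruned, where on means 1 CPM or more in every library of a group. Silent means 3 or fewer counts summed over the 4 libraries of a group.

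The plants were wild-type pea (Pisum sativum, listed as Lathyrus oleraceus) of the line labelled Cameor, grown hydroponically in a greenhouse under long days. Reactivated apices were taken 24 h after every fruit and flower had been cut from plants whose apex had arrested. Arrested apices (labelled GPA, updated in the labels to PA) were taken as plants entered proliferative arrest. Pruned apices came from plants deflowered throughout, which had never sensed seeds, and were collected on the same day as the Arrested ones with the meristem still active. Proliferative apices came from young plants with a first flower bud and no open flower, also with an active meristem. Each group has 4 libraries, called biological replicates in the labels without a statement of how many plants were pooled. Apices were dissected by eye, so leaf and bud tissue around the meristem can be present.

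The shoot apical meristem is the group of dividing cells at the shoot tip from which leaves and flowers arise. In plants that fruit once and die, the inflorescence meristem stops making flowers after a number of fruits have set, and this proliferative arrest depends on the developing seeds. Arrested meristems are not dead: taking the fruits away lets them grow again, so the state resembles the dormancy of a bud. In Arabidopsis, the timing of the arrest is set in part by the transcription factor FRUITFULL and the AP2-type factors it represses.

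The gene IDs are not paired with names in the table, and 0 of the 48559 IDs, members included, matched the RefSeq gene table used here. No function, position or sequence is therefore given for any member, and the tissue was not checked against marker genes. Library totals ran from 16264221 to 24435174 counts, and the 4 groups overlapped in depth. A single read was worth 0.0409 to 0.0615 CPM. Counts were made without regard to strand, so a member cannot be told apart from an antisense or overlapping gene, or from a near-identical copy. CPM is not corrected for gene length, so a member with a higher CPM than another had more reads, which is not the same as more transcripts. In whole apices, fewer expressing cells and less RNA per cell cannot be told apart.

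The values that chose the members showed an off state that was nearly complete. Over the 4 Arrested libraries, 26 members had 0 counts, 9 had 1 count, 9 had 2 and 5 had 3, which makes 42 counts in 79165025. Of these 42 counts, 20 fell in Arrested 1, 4 in Arrested 2, 6 in Arrested 3 and 12 in Arrested 4. In Pruned the same 49 genes held 36788 counts. A limit of 3 counts over the Arrested libraries corresponds to 0.0379 CPM, against the 1 CPM required in each Pruned library. These values follow from the choice of members, and no test is given for them.

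Most members were genes with few reads even where they were on. The mean CPM of a member in Pruned ran from 1.21 to 124, with a median of 4.17, and 42 of 49 lay under 10 CPM, whereas the median of all genes on in Pruned was 19.4 CPM. Spread between replicates was wide: the median coefficient of variation of a member was 49.6% in Reactivated, 35.1% in Pruned and 38.1% in Proliferative, against 16.4%, 18.1% and 18.3% for all genes on in Pruned. The part of this spread that comes from low counts was not tested.

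**Figure D1:**
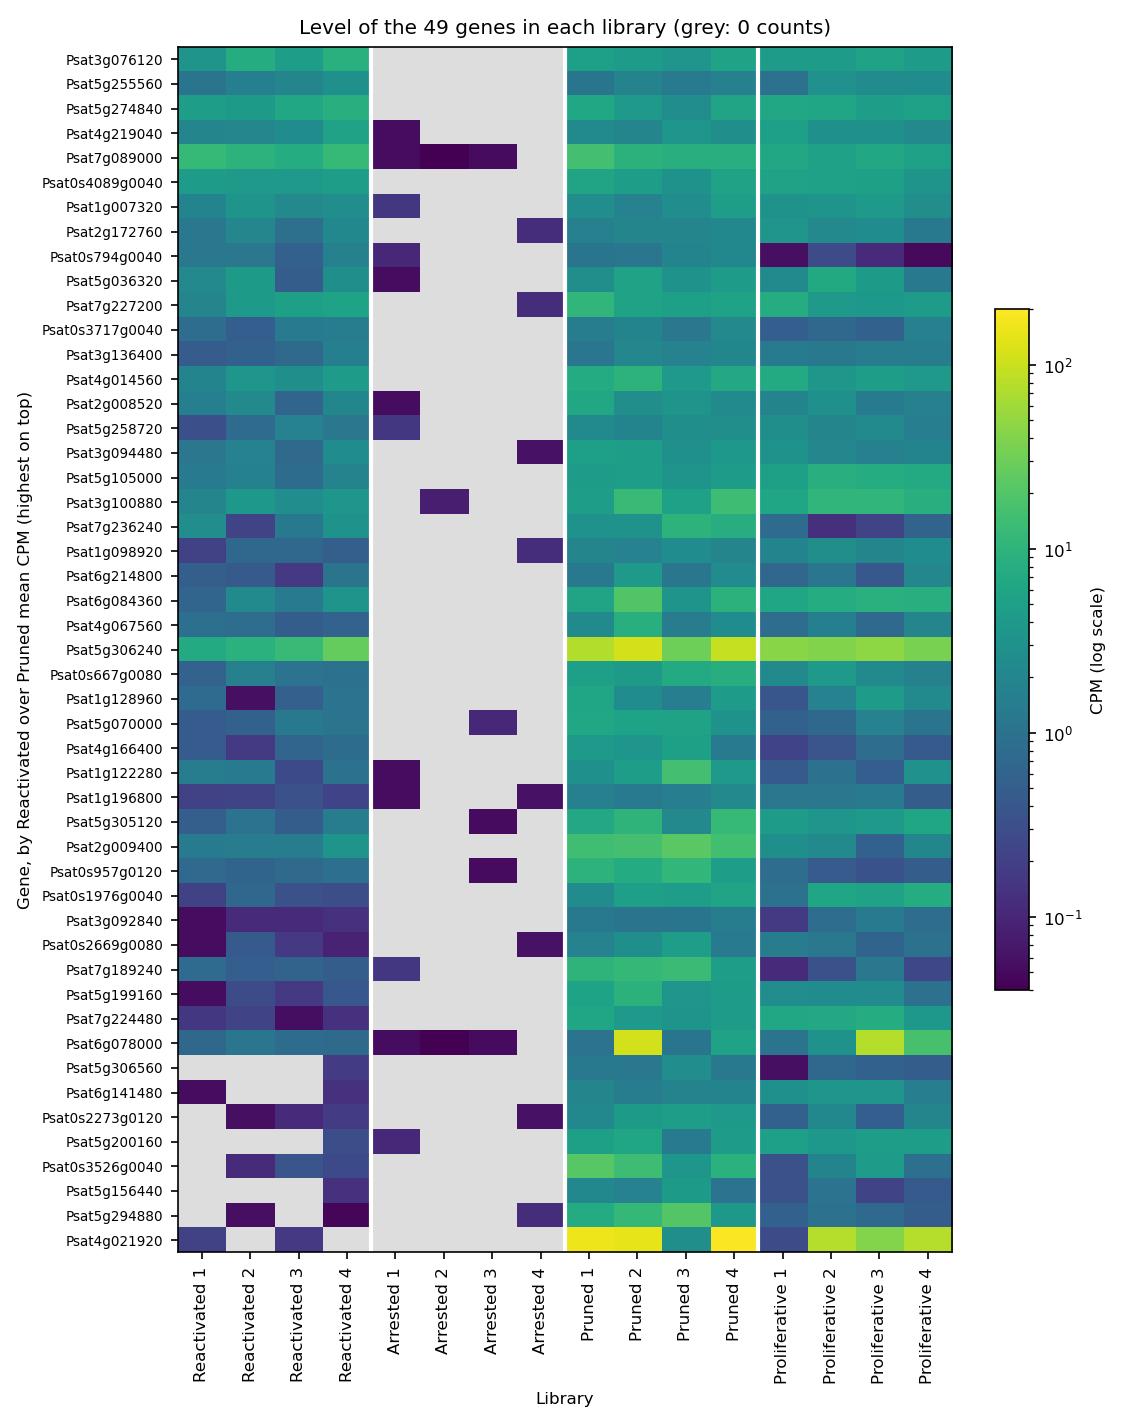
CPM of the 49 genes (rows) in each of the 16 libraries (columns), on a log colour scale with 0 counts in grey; rows run from the highest to the lowest ratio of Reactivated to Pruned mean CPM. The Arrested columns are almost all grey, the Pruned columns are filled by the choice of genes, and the Reactivated columns fade from the top row, Psat3g076120, to the bottom row, Psat4g021920.

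Psat5g306240 and Psat4g021920 carried the most reads of the group. Psat5g306240 had 7.31, 9.33, 13.04 and 26.4 CPM in Reactivated 1 to 4, 0 counts in Arrested, 75.3, 117, 30.4 and 93.1 CPM in Pruned 1 to 4, and 43.4, 39.7, 47.2 and 36.4 CPM in Proliferative 1 to 4. In CPM over library totals, the Reactivated libraries thus lay below all Pruned and all Proliferative ones, with Reactivated 4 closest to them. The fit scales library totals by TMM factors, which were 0.783 for Reactivated 4 and 1.06 for Pruned 3. Scaled by these factors, Reactivated 4 no longer lies below Pruned 3. Psat4g021920 had 4, 0, 3 and 0 counts in Reactivated 1 to 4 and 0 counts in Arrested. Its level was 162, 143, 2.81 and 189 CPM in Pruned 1 to 4 and 0.280, 78.7, 41.8 and 76.8 CPM in Proliferative 1 to 4. Pruned 3 and Proliferative 1 therefore stood far below the other libraries of their groups for this gene. The Reactivated libraries stayed below Pruned 3. Reactivated 1 held 4 counts against 5 in Proliferative 1, too few to tell these 2 libraries apart.

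The genes named at the edges of the rule were picked by their counts. At the Arrested limit they were those with the highest Pruned mean for their number of Arrested counts. Psat6g078000 and Psat7g089000 lay just inside the limit on Arrested counts with 3 each. Just outside it, with 4 Arrested counts each, were Psat1g085560, at 6.71 CPM in Reactivated and 65.4 CPM in Pruned on average, and Psat0s799g0080, at 9.93 CPM in Reactivated and 14.9 CPM in Pruned. The lowest Pruned library was at 1.025 CPM for Psat5g156440 and at 1.04 CPM for Psat6g078000, just inside the Pruned limit, and at 0.939 CPM for Psat3g193960 and 0.921 CPM for Psat5g272000, just outside. Leaving Arrested 1 out of the rule would have taken in 78 genes in place of 49. The limit stayed at 3 counts, so leaving out an Arrested library could only add genes.

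Reads of most members were found in every Reactivated library, 24 h after the fruits were removed, but few members were on there. Arrested and Pruned counts had chosen the members, so this return is described and not tested. All 4 Reactivated libraries held at least 1 count of 41 members, and each of the 49 had a count in at least 1 library. The 49 genes together held 6913 counts in Reactivated, against 42 in Arrested. Of the 49, 12 were on in Reactivated (24.5%), 35 lay between silent and on, and 2 were silent (4.08%). Among all 19630 genes on in Pruned, 93.2% were on in Reactivated and 0.0713% were silent. Those genes have more reads at the outset, and the part of that difference in the shares was not tested.

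The return can be bounded from below for members at 0 counts in Arrested by setting them to the floor of 3 counts over the 4 Arrested libraries. Of these 26 members, 17 were at least 10-fold above that floor in Reactivated and 4 were at least 100-fold above it. Psat5g306240 was at least 387-fold higher in Reactivated than in Arrested, Psat3g076120 at least 164.6-fold, Psat5g274840 at least 161.9-fold and Psat0s4089g0040 at least 114-fold. These bounds use counts pooled over a group. The other 23 members had 1 to 3 Arrested counts. Of these, Psat7g089000, with 3, had a ratio of pooled CPM of 278 with an exact 95% interval of 94.7 to 1350 for counting error only, and Psat7g227200, with 2, had a ratio of 165 with an interval of 45.3 to 1369. For 20 of the 23 members the interval lay above 1. The Arrested libraries had chosen the members, so these folds and intervals are a description and no test.

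Relative to Pruned, the median member stood in Reactivated at 0.178 of its Pruned mean CPM, with quartiles at 0.0715 and 0.487. All genes on in Pruned had a median ratio of 0.737 on the same scale. That median is itself below 1, for a reason that was not tested. TMM factors, which scale library totals in the fit, were 0.760 to 0.845 in Reactivated and 0.966 to 1.08 in Pruned. Ratios of CPM scaled by these factors would be higher, for members and for all genes. Of the members, 16 lay under 0.1 of Pruned (32.7%, against 1.01% of all genes on in Pruned), 21 between 0.1 and 0.5 (42.9%, against 20.02%), 8 between 0.5 and 1 (16.3%, against 54.7%) and 4 at 1 or above (8.16%, against 24.3%). High Pruned values were a condition of membership, which by itself lowers these ratios to an extent that was not tested. Without Pruned 2 the median ratio was 0.2496.

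**Figure D2:**
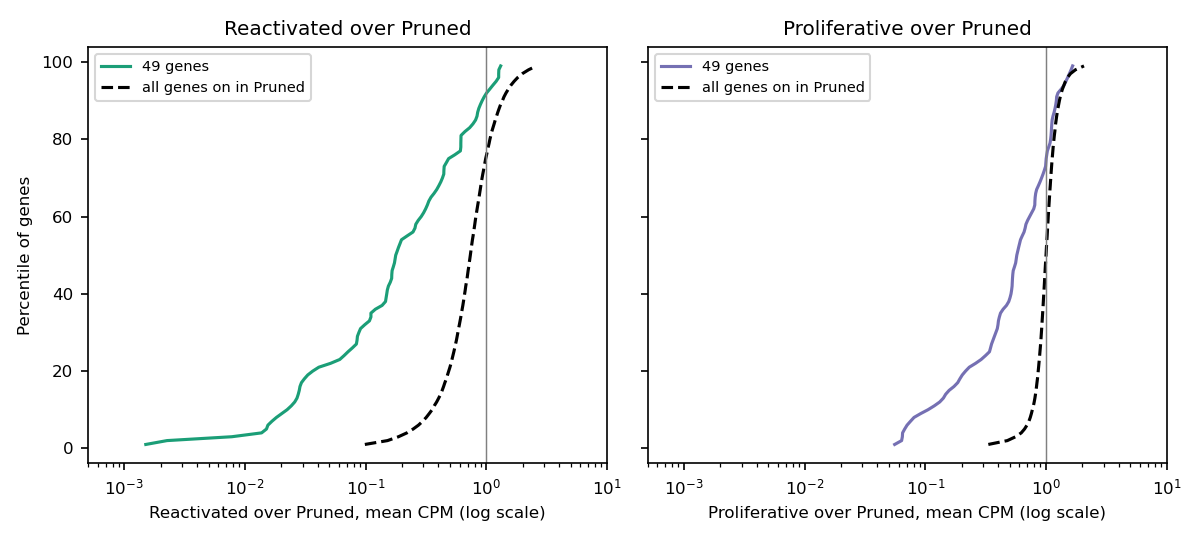
Percentile of genes (vertical) by the ratio of group mean CPM (horizontal, log scale): Reactivated over Pruned on the left and Proliferative over Pruned on the right, for the 49 genes (solid) and for all 19630 genes on in Pruned (dashed). The 49 genes lie left of the dashed line over most of both panels, with medians of 0.178 on the left and 0.573 on the right.

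Apart from Psat5g306240, the 5 members with the most reads in Reactivated stood there at 0.615 to 1.36 of their Pruned mean CPM. Psat7g089000 had 11.9, 10.01, 7.77 and 12.1 CPM in Reactivated 1 to 4, against 15.5, 9.62, 8.53 and 8.76 CPM in Pruned 1 to 4, and the groups overlapped. Psat3g076120 had 3.23, 7.74, 4.78 and 8.77 CPM in Reactivated, against 4.84, 4.297, 3.44 and 5.45 CPM in Pruned. Its Reactivated values spread on both sides of the Pruned ones. Psat5g274840 averaged 5.998 ± 1.94 CPM in Reactivated and 4.74 ± 1.83 CPM in Pruned, Psat0s4089g0040 averaged 4.298 ± 0.402 CPM in Reactivated and 4.73 ± 1.25 CPM in Pruned, and Psat7g227200 averaged 4.104 ± 1.64 CPM in Reactivated and 6.67 ± 2.77 CPM in Pruned (SD, n = 4 each). The 4 members at or above their Pruned mean in Reactivated, picked out after their values were seen, were Psat3g076120 at 1.36 of Pruned, Psat5g255560 at 1.27, Psat5g274840 at 1.26 and Psat4g219040 at 1.11.

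At the other end, reads of a few members were hardly found 24 h after the fruits had gone. The 2 members silent in Reactivated were Psat5g294880 and Psat5g156440. Psat5g294880 had 0, 1, 0 and 1 counts in Reactivated 1 to 4, 0, 0, 0 and 2 counts in Arrested 1 to 4, and 7.46, 11.7, 20.6 and 3.77 CPM in Pruned 1 to 4. Psat5g156440 had its 3 Reactivated counts all in Reactivated 4, had 0 in Arrested, and stood at 2.12, 1.74, 4.18 and 1.025 CPM in Pruned. For both, the Reactivated level was not distinguishable from the Arrested level at this depth. Reactivated 1 to 3 likewise held 0 counts of Psat5g200160, while Reactivated 4 held 7.

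**Figure D3:**
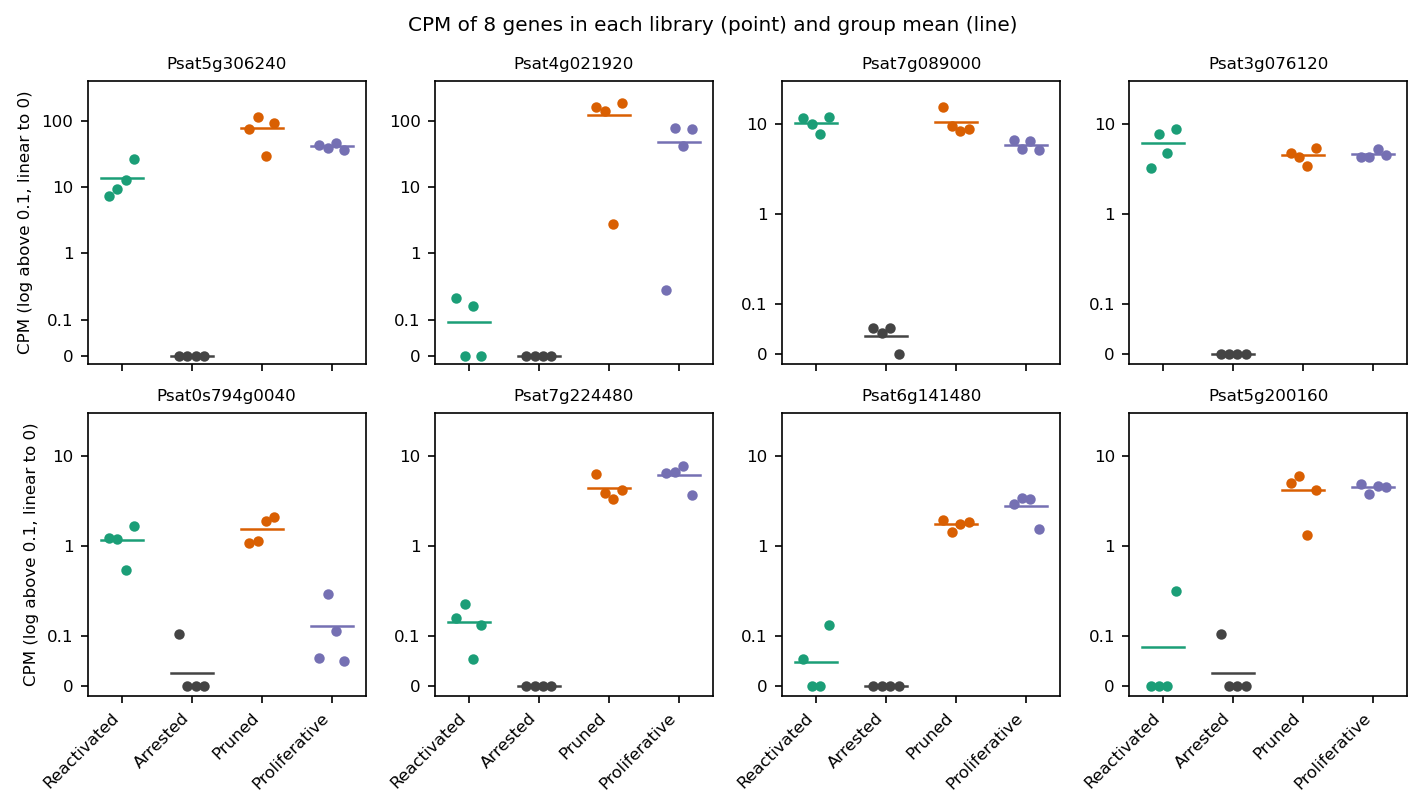
CPM of 8 of the genes in each library (points) and the group means (lines), on an axis that is logarithmic above 0.1 CPM and linear down to 0. In the upper row Psat5g306240, Psat7g089000 and Psat3g076120 have every Reactivated library far above Arrested while Psat4g021920 does not, and in the lower row Psat7g224480, Psat6g141480 and Psat5g200160 stay under 0.4 CPM in Reactivated with more than 1 CPM in every Pruned and Proliferative library.

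In Proliferative, the active meristem of younger plants, 26 of the 49 members were on (53.1%), 23 lay between and 0 were silent. Among all genes on in Pruned, 97.5% were on in Proliferative and 0.00509% were silent there. The median member stood in Proliferative at 0.573 of its Pruned mean, with quartiles at 0.340 and 1.004, whereas the median of all genes on in Pruned was 1.001. Of the members, 5 lay under 0.1 of Pruned, 14 between 0.1 and 0.5, 17 between 0.5 and 1, and 13 at 1 or above (26.5%, against 50.2% of all genes on in Pruned). Pruned and Proliferative differ in plant age and in pruning, and the Pruned values had chosen the members, so no test is given. Of the 12 members on in Reactivated, 10 were also on in Proliferative, and of the 26 on in Proliferative, 16 were not on in Reactivated. The 2 on in Reactivated but not in all Proliferative libraries were Psat2g009400 and Psat5g255560.

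A few members had far fewer reads in Proliferative than in Pruned. The 5 members under 0.1 of the Pruned mean in Proliferative, picked out after their values were seen, were Psat0s794g0040, Psat0s957g0120, Psat5g294880, Psat7g189240 and Psat7g236240. In Reactivated these 5 differed, from 0.00232 of the Pruned mean for Psat5g294880 to 0.749 for Psat0s794g0040. Psat7g189240 averaged 0.598 ± 0.140 CPM in Reactivated, 9.87 ± 3.72 CPM in Pruned and 0.472 ± 0.490 CPM in Proliferative, and Psat0s957g0120 averaged 0.754 ± 0.110 CPM in Reactivated, 8.24 ± 2.89 CPM in Pruned and 0.535 ± 0.215 CPM in Proliferative (SD, n = 4). Psat2g009400 stood at 0.111 of its Pruned mean in both Reactivated and Proliferative. It had 1.38, 1.47, 1.47 and 3.25 CPM in Reactivated 1 to 4, 14.8, 16.1, 22.3 and 15.2 CPM in Pruned 1 to 4, and 2.75, 2.29, 0.569 and 2.00 CPM in Proliferative 1 to 4. Its Pruned libraries lay above all others, as the rule favours, while Reactivated and Proliferative overlapped.

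Reactivated against Proliferative compares 2 groups that did not enter the rule. It asks how the reactivated apex stands against an apex that had never arrested, with plant age, the cutting of fruits and the earlier arrest all differing between the groups. The filter on low counts was not free of the rule, since 10 of the 49 members passed it only with the Pruned and Arrested libraries in the fit, and high Pruned counts had chosen them. The comparison is therefore read over the 39 members that also passed the filter on the Reactivated and Proliferative libraries alone. Of these 39, 13 (33.3%) were called lower in Reactivated, 4 (10.3%) were called higher and 22 were not called. Among the 22056 genes that passed on the same libraries, 22.9% were called lower and 19.6% higher. A gene was called at a Benjamini-Hochberg adjusted p under 0.05 over all 23979 genes tested, in a quasi-likelihood fit of all 16 libraries in edgeR. The median log2 fold change was -0.25 over the 39 members and -0.06 over the 22056 genes. Over all 49 members, 21 (42.9%) were called lower and 4 (8.16%) higher, against 22.6% and 18.5% of all genes tested, but 8 of the 21 are among the 10 members that passed through Pruned, and no p is given for those.

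The log2 fold changes of the 13 lower calls ran from -5.29 to -1.18 with a median of -2.16, and in 12 of the 13 every Reactivated library lay below every Proliferative library in CPM. Over the 39 members that held for 13 (33.3%), against 37.0% of the 22056 genes, so the share of members whose libraries do not overlap was near the background. It held in the other direction for 2 (5.13%), against 9.46%. Of the 13, 11 were on in Proliferative, and 7 were among the 16 members under 0.1 of their Pruned level. Errors were wide, with a median standard error of 0.46 for the 39 members and 0.21 for the 22056 genes.

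The clearest of these differences were in genes steadily read in Proliferative. Psat7g224480 had 0.159, 0.226, 0.0544 and 0.134 CPM in Reactivated 1 to 4, against 6.502, 6.74, 7.85 and 3.703 CPM in Proliferative 1 to 4, a log2 fold change of -5.02 (standard error, SE, 0.43, adjusted p = 1.07e-06 by edgeR). Its Pruned libraries lay between 3.32 and 6.27 CPM, so the Reactivated libraries were below both never-arrested groups. Psat6g141480 had 4 counts over the Reactivated libraries and 225 over the Proliferative ones, a ratio of pooled CPM of 0.0183 with an exact 95% counting interval of 0.00493 to 0.0474 (adjusted p = 2.60e-05 by edgeR). Psat5g200160 had 7 counts over Reactivated, all in Reactivated 4, and 354 over Proliferative, with 3.78 to 4.93 CPM in each Proliferative library (adjusted p = 0.000123 by edgeR). For these 3 genes no Reactivated library reached the Proliferative range.

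Psat5g105000 fell less. It had 1.32, 1.696, 0.815 and 1.83 CPM in Reactivated 1 to 4, against 5.101, 8.27, 7.85 and 7.36 CPM in Proliferative 1 to 4, with -1.96 as the log2 fold change (SE 0.28, adjusted p = 9.43e-05 by edgeR). Psat0s1976g0040 averaged 0.382 ± 0.204 CPM in Reactivated and 5.03 ± 2.89 CPM in Proliferative (SD, n = 4), where Proliferative 1 stood at 0.953 CPM and the other 3 between 5.401 and 7.71 (log2 fold change -3.34, SE 0.57, adjusted p = 0.000436 by edgeR). Psat5g199160 averaged 0.225 ± 0.150 CPM in Reactivated and 2.15 ± 0.773 CPM in Proliferative (log2 fold change -2.84, SE 0.55, adjusted p = 0.00106 by edgeR). In all 3 genes the groups did not overlap.

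Psat5g306240 was lower at a log2 fold change of -1.18 (SE 0.42, adjusted p = 0.0370 by edgeR), a call lost without any single one of Reactivated 1 to 3 and Proliferative 1 to 4, with adjusted p up to 0.120. The other 4 lower calls outside the naming rule had mean levels of 0.189 to 2.93 CPM in Reactivated and 1.07 to 9.08 CPM in Proliferative, with log2 fold changes of -2.16 to -1.25 and adjusted p from 0.00362 to 0.0161 by edgeR. In all 4 the groups did not overlap. Only 1 of them, Psat3g100880, was on in Reactivated, at 1.91 to 3.73 CPM, and its 6.05 to 11.1 CPM in Proliferative lay above that range (log2 fold change -1.25, SE 0.39, adjusted p = 0.0161 by edgeR, and 0.0669 without Reactivated 1). It was named after its values were seen.

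The members that passed the filter only with Pruned in the fit are described by their counts. Psat4g021920 had 7 counts over Reactivated and 4170 over Proliferative, a ratio of pooled CPM of 0.00172 with a counting interval of 0.000692 to 0.00355, although Proliferative 1 held 5 of those counts. Psat5g294880, with 2 counts over Reactivated against 57 over Proliferative, had a ratio of 0.0360 and an interval of 0.00426 to 0.136. Psat5g156440, with 3 counts over Reactivated against 44 over Proliferative, had a ratio of 0.0700 and an interval of 0.0139 to 0.218. A further 4 of the 8 such members with lower fitted levels in Reactivated, outside the naming rule, averaged 0.0445 to 0.247 CPM in Reactivated and 0.458 to 1.31 CPM in Proliferative. The intervals cover counting error only and say nothing of the spread between replicates.

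The 4 members called higher in Reactivated than in Proliferative had log2 fold changes of 0.78 to 3.44. Psat0s794g0040 had 1.22, 1.19, 0.543 and 1.69 CPM in Reactivated 1 to 4, against 0.0561, 0.291, 0.114 and 0.05004 CPM in Proliferative 1 to 4 (log2 fold change 3.44, SE 0.65, adjusted p = 0.000522 by edgeR). Its Reactivated libraries overlapped with those of Pruned, at 1.09 to 2.097 CPM, and its 11 counts over Proliferative stood against 2 over Arrested. Psat7g089000 was higher at a log2 fold change of 1.19 (SE 0.24, adjusted p = 0.000983 by edgeR), with 5.15 to 6.67 CPM in Proliferative, and did not overlap with it.

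The other 2 higher calls were weaker. Psat7g236240 had 2.596, 0.226, 1.25 and 3.12 CPM in Reactivated 1 to 4, against 0.785, 0.125, 0.227 and 0.601 CPM in Proliferative 1 to 4, so Reactivated 2 lay within the Proliferative range (log2 fold change 2.44, SE 0.75, adjusted p = 0.0192 by edgeR). The call was lost without Reactivated 1 or 4 or Proliferative 2 or 3, with adjusted p up to 0.0626. Psat3g076120 was higher at a log2 fold change of 0.78 (SE 0.29, adjusted p = 0.0458 by edgeR) and overlapped with its Proliferative range of 4.32 to 5.34 CPM. That call was lost in 7 of the 8 fits that left out 1 library of either group, with adjusted p up to 0.160 and a log2 fold change of 0.55 without Reactivated 4, and when scaled by library totals (log2 fold change 0.40, adjusted p = 0.273 by edgeR).

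**Figure D4:**
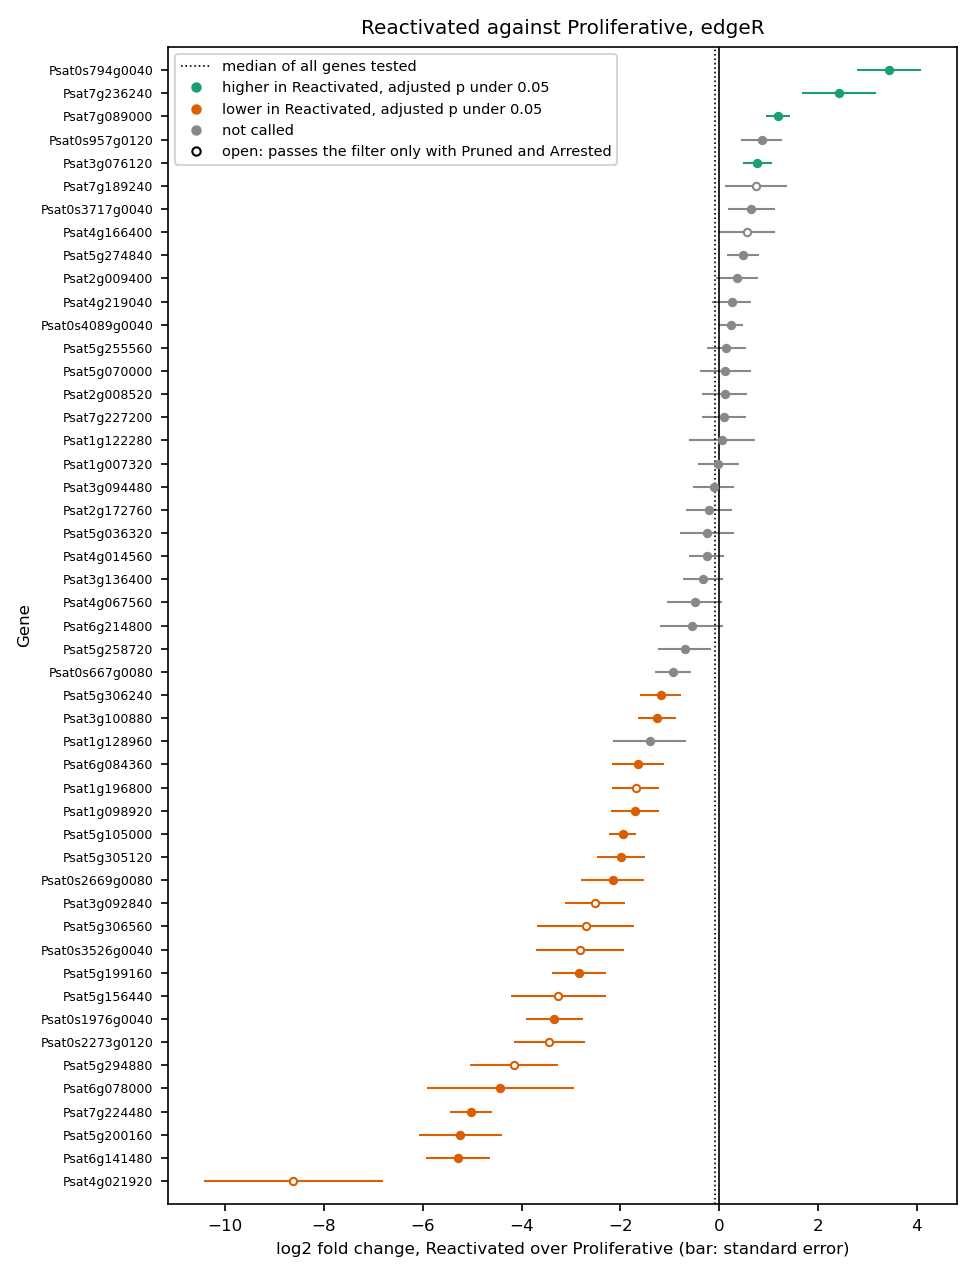
Log2 fold change of Reactivated over Proliferative for each of the 49 genes (points) with its standard error (bars) from edgeR's quasi-likelihood fit; the dotted line is the median of all genes tested. Of the 39 filled points, 13 orange ones were called lower and reach -5.29, and 4 green ones were called higher and reach 3.44. The other 22 filled points, in grey, were not called. The 10 open points passed the filter on low counts only with Pruned and Arrested in the fit, and their colours are not read as calls.

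A further 20 members that were not called and are outside the naming rule averaged 0.525 to 3.16 CPM in Reactivated, 1.47 to 9.87 CPM in Pruned and 0.472 to 4.86 CPM in Proliferative. Of these 20, 4 were on in Reactivated and 10 in Proliferative. The 24 members without a call, 2 of which passed the filter only through Pruned, had log2 fold changes of up to 1.41 in size and a median standard error of 0.45, so changes of 2-fold could have been missed. Among those with the most reads in Reactivated, the log2 fold change over Proliferative was 0.48 (SE 0.33) for Psat5g274840, 0.23 (SE 0.26) for Psat0s4089g0040 and 0.10 (SE 0.44) for Psat7g227200. For the last 2 genes the sign turned when scaled by library totals, at -0.14 and -0.27.

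The count of lower calls depended on which libraries were fitted. Over all 49 members, each of the 8 fits that left out 1 Reactivated or Proliferative library gave 15 to 20 lower calls in place of 21. These counts include members that passed the filter only through Pruned. Of the 13 lower calls among the 39 members, 9 were made in all 8 fits, as were 2 of the 4 higher ones. When scaled by library totals, 22 of all 49 members were called lower and 3 higher. The calls over all genes then moved to 41.9% lower and 9.52% higher. The share of members called lower was thus near that of all genes under this scaling. It also counts members that passed the filter only through Pruned. The median log2 fold change was -0.92 over the members and -0.46 over all genes tested. When only the 8 libraries of these groups were fitted the 39 members gave 13 lower and 3 higher calls, against 21.8% and 18.9% of all genes.

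Reads of the members were unevenly spread over the libraries of a group. The 49 genes summed to 87.4 ± 25.9 CPM in Reactivated, 0.565 ± 0.404 CPM in Arrested, 461 ± 152 CPM in Pruned and 242 ± 57.1 CPM in Proliferative (SD, n = 4 each). Without Psat4g021920 and Psat5g306240 the sums were 73.3 ± 17.97 CPM in Reactivated, 0.565 ± 0.404 CPM in Arrested, 258 ± 68.0 CPM in Pruned and 151 ± 40.3 CPM in Proliferative. In CPM over library totals, the Reactivated sums over the 49 genes, from 66.4 to 125 CPM, lay below the Proliferative ones, from 163 to 299 CPM. Scaling by TMM factors narrows this gap. Without Psat4g021920 and Psat5g306240, Reactivated 4 (98.3 CPM, factor 0.783) then no longer lies below Proliferative 1 (119 CPM, factor 0.982). In single libraries, 18 to 27 members reached 1 CPM in Reactivated and 29 to 38 in Proliferative. Reactivated 4 was the highest of its group for 30 members and Reactivated 1 the lowest for 23. Among Pruned libraries, Pruned 3 was the lowest for 20 members and also the highest for 14.

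**Figure D5:**
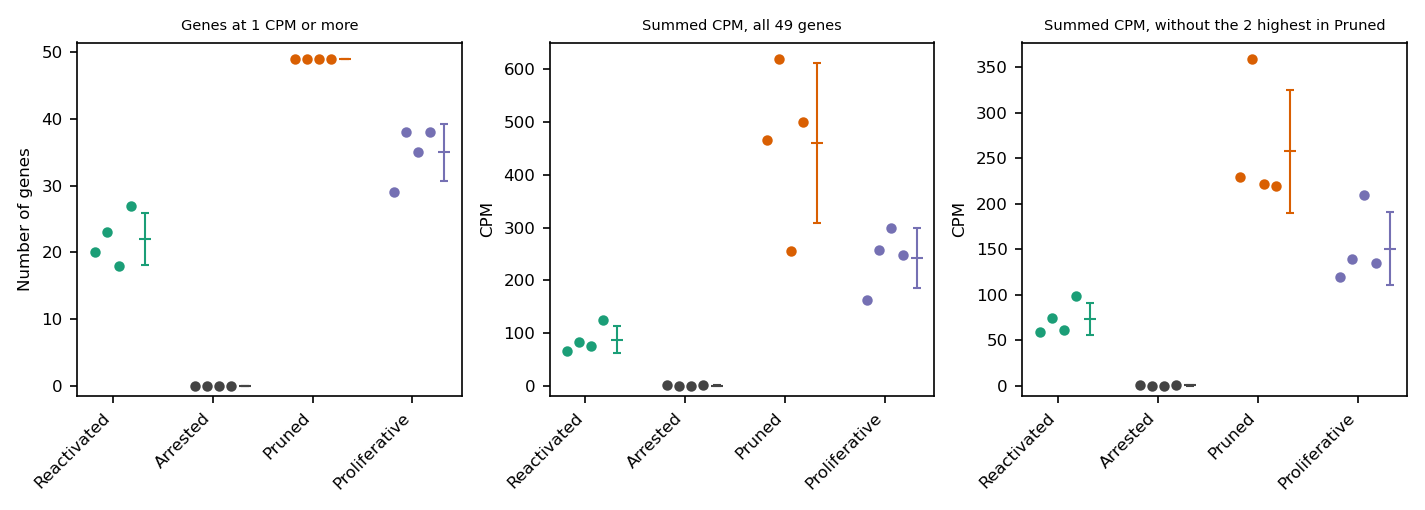
Number of the 49 genes at 1 CPM or more (left), their summed CPM (middle) and their summed CPM without Psat4g021920 and Psat5g306240 (right) in each library (points), with the group mean and SD (bars, n = 4). In CPM over library totals, Reactivated libraries reach 18 to 27 genes and 66.4 to 125 CPM, above Arrested and below every Proliferative library.

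The members with the widest range in Pruned did not share a pattern. Psat6g078000 had 0.689, 1.13, 0.815 and 0.757 CPM in Reactivated 1 to 4, 1.04, 110.2, 1.09 and 5.36 CPM in Pruned 1 to 4, and 1.065, 3.08, 76.7 and 16.5 CPM in Proliferative 1 to 4. Pruned 2, Proliferative 3 and Proliferative 4 held 92.4% of its counts. They are the libraries that share a block of 188 genes with 90% or more of their counts in these 3, and 1 of the 188 is a member. Its call in Reactivated against Proliferative (log2 fold change -4.43, SE 1.48, adjusted p = 0.0250 by edgeR) had an adjusted p of 0.313 and a log2 fold change of -0.92 without those 3 libraries, and it was also lost without Proliferative 3 or any single Reactivated library, with adjusted p up to 0.135. Without the 3 libraries, 14 of all 49 members were called lower and 2 higher in that comparison, against 15.8% and 13.6% of all genes tested. The 14 include Psat4g021920, Psat5g294880 and Psat5g156440, which passed the filter on low counts only through Pruned. The count is therefore not read against the share of all genes.

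Psat0s3526g0040 had 21.9, 14.2, 3.49 and 9.18 CPM in Pruned 1 to 4. Its level was 0 to 0.380 CPM in Reactivated and 0.336 to 4.26 CPM in Proliferative, and the ranges overlapped. It is among the members that passed the filter on low counts only through Pruned, so no p is given. Psat6g084360 had 0.636, 2.32, 1.36 and 3.29 CPM in Reactivated 1 to 4, 5.78, 19.5, 3.32 and 9.598 CPM in Pruned 1 to 4, and 5.89, 7.69, 8.87 and 8.51 CPM in Proliferative 1 to 4. Its lower level in Reactivated than in Proliferative (log2 fold change -1.64, SE 0.53, adjusted p = 0.0252 by edgeR) was not called without Reactivated 1, 2 or 3 or Proliferative 4, with adjusted p up to 0.0748.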

How the data were processed

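RNA-seq counts of 16 libraries were used, 4 for each of 4 groups. The authors deposited raw counts of reads per gene, made with HTSeq without regard to strand by the table's name. Per the labels' protocols, libraries were strand-specific, from polyadenylated RNA, on an Illumina NovaSeq. The submitters' processing notes list HTSeq, HISAT2, cutadapt and DESeq2, with no version. The genome build and annotation are not given in the sources used here. The table held whole numbers only, and 0 rows named no gene.

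Members were found by the rule in the opening. The members, tests and named genes were chosen with earlier results of these data known. Genes were named if highest in a group, silent in one, most widely spread in Pruned, at the edge of the rule, or among the 6 with the smallest adjusted p in either direction. Genes passing edgeR's filterByExpr (23979, all 49 members among them) were tested with edgeR 4.0.16 in R 4.3.3 (TMM factors, glmQLFit, glmQLFTest) over all 16 libraries with group as the only term. The standard error is the log2 fold change divided by the square root of F. With the 8 Reactivated and Proliferative libraries alone 39 members passed the filter, so 10 passed only with Pruned and Arrested in the fit. Intervals are exact and cover counting error only. The edgeR fit was tested on simulated data; the mark for passing was lowered after its result was seen, and the fit was left as it was. The counts of non-overlapping libraries, and the restriction to genes that pass the filter on the 8 libraries compared, were added after the counts had been seen. Alternatives were RLE factors, library totals, no filter, DESeq2 1.42.0, the 8 libraries of the comparison alone, a replicate block, and leaving out libraries. No library pair of a group agreed within sampling noise (chi-square per gene of 11.5 or more).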

Additional observations from a re-analysis of the deposited data

Results flagged for a closer look

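In groups of 4, a library was picked out where its gap to the nearest of the others was, as a share of the group's range in CPM, above Dixon's critical value for 4 values. Of 72 group values examined, 10 passed it. The critical value passes about 1 in 20 by chance for independent, normally spread values, which these are not. A group with 0 counts in all libraries but 1 always passes, as for Psat5g156440 and Psat5g200160 in Reactivated. The flagged Pruned sum includes Psat6g078000, which is itself flagged. The 10 are therefore not read against 1 in 20. Over all members the count was 14 of 147.

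In Reactivated, Reactivated 4 was high for Psat2g009400 (3.25 CPM, the others 1.38 to 1.47), Psat5g156440 (0.134 CPM, the others 0) and Psat5g200160 (0.312 CPM, the others 0). In Proliferative, Proliferative 4 was low for Psat5g199160 (1.001 CPM, the others 2.44 to 2.63) and Proliferative 1 was high for Psat7g227200 (7.85 CPM, the others 3.696 to 4.35).

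In Pruned, Pruned 2 was high for Psat6g078000 (110.2 CPM, the others 1.04 to 5.36) and for the summed CPM of the members without Psat4g021920 and Psat5g306240 (359 CPM, the others 219 to 230). Pruned 1 was high for Psat7g089000 (15.5 CPM, the others 8.53 to 9.62) and Psat7g227200 (10.8 CPM, the others 5.098 to 5.405). Pruned 3 was low for the median CPM over members (3.27 CPM, the others 4.24 to 4.298).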

How the results depend on the processing

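No call among the members changed sign under any alternative that tested it; with only the 8 libraries fitted, 39 of the 49 were tested. Among the 39 members, the 13 lower and 4 higher calls became 13 lower and 3 higher when only the 8 libraries were fitted. The restriction to these 39 was chosen after seeing the data. Over all 49 members there were 21 lower calls, 8 of them in members that passed the filter only through Pruned. Leaving out 1 library gave 15 to 20 lower and 2 to 4 higher calls over all 49. Every count over all 49 members in this section includes such members. Without the 3 libraries that share a block of genes, an alternative chosen after seeing the data, 2 were higher. RLE factors and DESeq2 gave 21 and 4 again. Over all genes, library totals gave 2282 higher and 10054 lower in place of 4431 and 5422. The labels do not say that a replicate number marks a shared batch. Deviations of same-numbered Reactivated and Proliferative libraries correlated at -0.07, 0.59, -0.19 and 0.10. Of the 4 Reactivated libraries, 1 correlated best with its own number. So few values cannot settle whether same-numbered libraries share a batch. The fit with a replicate block called 19 members lower and 3 higher. Uncalled fold changes near 0 turned sign. Psat2g009400 stood at 0.36, at -0.0041 with library totals, -0.0434 without the 3 block libraries and -0.0343 to 0.61 without single libraries, below 0 without Reactivated 4. Psat0s4089g0040 was at -0.14 and Psat7g227200 at -0.27 with library totals. Psat7g227200 was at -0.17 without the block libraries, and at -0.0834 to 0.44 without single libraries, below 0 without Reactivated 3 or 4 or Proliferative 2 or 3. A limit of 0.5 CPM put 22 members on in Reactivated in place of 12. TMM factors were 0.760 to 0.845 in Reactivated and 0.966 to 1.08 in Pruned. CPM scaled by them therefore puts more members on in Reactivated and raises its median level over Pruned. Limits of 0 and of 10 counts made 0 and 8 silent there in place of 2. The number of members was 26 with 0 Arrested counts, 122 with up to 10 and 28 at 2 CPM in Pruned. It was 55 to 78 without single libraries, 78 being without Arrested 1. With the limits unchanged, leaving out a library could only add genes. The median level over Pruned in Reactivated (0.178) was 0.151 to 0.2496 without single libraries, highest without Pruned 2, and that in Proliferative (0.573) was 0.526 to 0.641 without single Pruned libraries. The causes were not tested.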
